A study of Mus musculus with 6 samples.

Results

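The Fc receptor transcripts comprise the 4 mouse Fcγ receptor genes Fcgr1, Fcgr2b, Fcgr3 and Fcgr4 and the shared signalling chain gene Fcer1g. These 5 members of the 47729 genes counted were selected by symbol, and the set was chosen because Fcgr3 ranks among the most abundant protein-coding genes of every sample. That rank is therefore a description here and supports nothing. The RNA came from extracellular vesicles (EVs), membrane particles shed by cells, of WEHI-231, a mouse B lymphoma cell line. In the isotype group, cells received 10 µg/mL of isotype antibody for 1 h, and in the anti-CD24 group the same dose of M1/69, a rat antibody to the surface protein CD24, for 1 h. Both antibodies were first mixed with 5 µg/mL of a secondary antibody to rat antibody, described as donkey in the sample labels and as goat in the study's methods. Each group held 3 biological replicates of this single line. There was no unstimulated group, and each condition had its own barcode, so that barcode and condition cannot be told apart.

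Fc receptors bind the constant (Fc) part of antibodies and tie antibody recognition to cellular responses. The receptors encoded by Fcgr1, Fcgr3 and Fcgr4 are activating and signal through the chain encoded by Fcer1g, whereas the receptor encoded by Fcgr2b carries its own inhibitory motif and is the classical Fcγ receptor of B cells. FcγRIII, the product of Fcgr3, is known mainly from macrophages, neutrophils, natural killer (NK) cells and mast cells.

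The libraries were made without fragmentation and without removal of ribosomal RNA (rRNA), and held between 166129 and 794185 counts on genes, of which 15626 to 112042 lay outside the rRNA and ribozyme genes and 2436 to 10659 on protein-coding genes. Levels are given as CPM, the count of a gene per 1e+06 counts on genes, and 3 counts, taken as the floor of detection, correspond to 3.78 to 18.1 CPM. Intervals are exact 95% Clopper-Pearson intervals and, like the floor, cover counting error only. Of 9 B cell markers, 8 had a count, 51 in all. Summed, they reached 0 to 21.7 CPM in the isotype samples and 7.55 to 21.3 CPM in the anti-CD24 samples.

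Fcgr3 (ENSMUSG00000059498) lies on the minus strand of chromosome 1 of GRCm38 from 171051174 to 171064935 and has 1736 exon bases over 4 annotated transcripts in GENCODE M21. The first exon of 1 of the 4, Fcgr3-202, runs from 171064754 to 171064935, is untranslated, and starts 5532 bases upstream of the start of Fcgr3-201. Its last 17 bases are also one end of the 72-base RefSeq tRNA gene n-TGtcc1, a glycine tRNA with the anticodon TCC, from 171064699 to 171064770. Gm11280, the gene with the highest Pearson r with Fcgr3 over the 6 samples, has the same arrangement, and its exon on chromosome 13 from 21940374 to 21940568, minus strand, shares 17 bases at its 3′ end with the tRNA gene n-TDgtc12. The last 30 bases of both exons are given 5′ to 3′ from the GRCm38 reference, at chr1:171064754-171064783 and chr13:21940374-21940403 on the minus strand, with the bases shared with the tRNA gene in capitals, because a read that touches an exon of the annotation used with any of its bases is counted for that gene:
Fcgr3-202 exon 1: tcccagcggtgcaGCGTTGGTGGTATAGTG
Gm11280-201 exon 2: ttgcactgcctcaTCCTCGTTAGTATAGTG
The capital stretches carried the same letter at 12 of 17 positions, and each was found in the annotated transcripts of 1 gene. The RefSeq tRNA genes, among them 7 for glycine TCC and 16 for aspartate GTC, were not searched. The stretches may therefore occur elsewhere in the genome. Whether the annotation that the authors counted on held Fcgr3-202 is not known here, and without that exon a read on the tRNA would not count for Fcgr3.

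**Figure D1:**
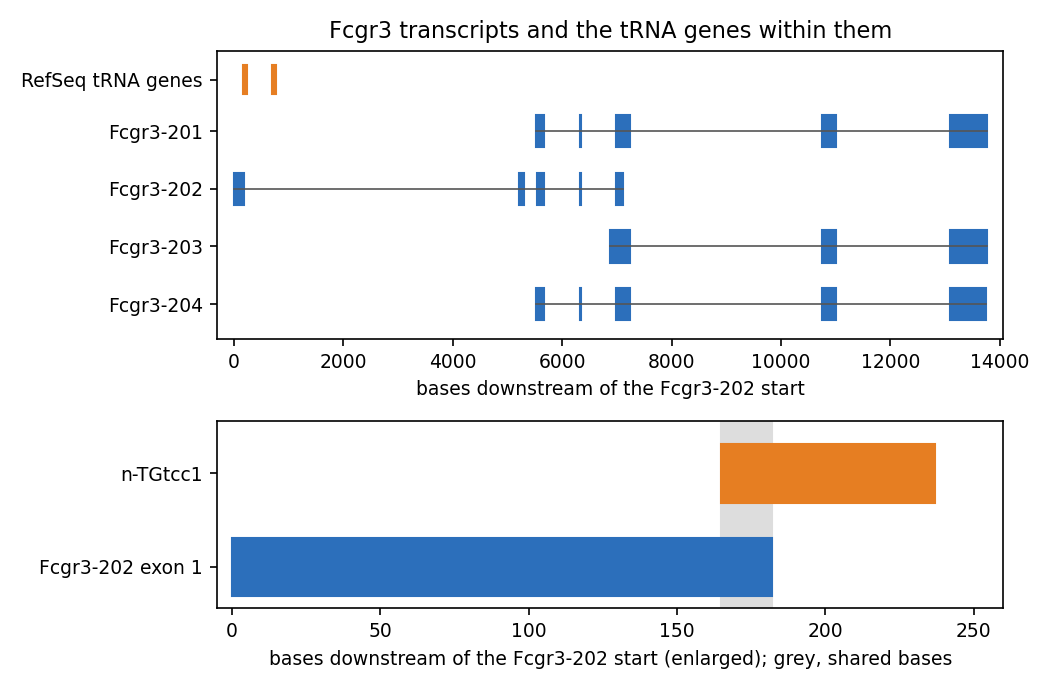
The upper panel shows the exons of the 4 Fcgr3 transcripts (blue) and 2 RefSeq tRNA genes within the gene (orange) by distance in bases from the start of Fcgr3-202. The lower panel enlarges the first exon of Fcgr3-202, 182 bases long, whose last 17 bases (grey) are shared with n-TGtcc1.

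Fcgr3 held nearly all Fc receptor counts in the EVs. It received 274 counts in isotype replicate 1, 142 in isotype replicate 2 and 301 in isotype replicate 3, and 152, 1019 and 161 counts in anti-CD24 replicates 1, 2 and 3, a total of 2049. Fcgr3 thus made up 99.9% of the counts of the 5 members over all samples, 99.3% (95% 97.4 to 99.9%) in isotype replicate 1 and 100% in each of the others.

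The ligand-binding chains of the other Fcγ receptors were not detected. Fcgr1, the high-affinity receptor (ENSMUSG00000015947, chromosome 3, 96282909 to 96293969, minus strand), had 0 counts in all 6 samples. Fcgr2b, the inhibitory receptor (ENSMUSG00000026656, chromosome 1, 170958617 to 170976547, minus strand), likewise had 0 counts in each. Fcgr4, a further activating receptor (ENSMUSG00000059089, chromosome 1, 171018920 to 171029761, plus strand), was also at 0 throughout. For each of them, 0 of the 3393165 counts on genes of the 6 samples were found, and the floor of 3 counts over that total is 0.884 CPM. Against that floor of 3 counts over all samples, the Fcgr3 counts were at least 683-fold higher, and at least 343-fold higher without anti-CD24 replicate 2, which held 1019 of them. Per kilobase of exon, Fcgr3 was at least 1019-fold higher than Fcgr1, at least 2278-fold higher than Fcgr2b and at least 494-fold higher than Fcgr4, if counts scale with exon length. Without anti-CD24 replicate 2 these bounds were 512-, 1145- and 248-fold.

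Fcer1g, the chain that the activating receptors signal through (ENSMUSG00000058715, chromosome 1, 171229572 to 171234365, minus strand), had 2 counts in isotype replicate 1 (6.20 CPM, 95% 0.751 to 22.4) and 0 in the other 5 samples. That single value is below the floor of its library, so neither its presence nor a difference between conditions can be read from it.

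**Figure D2:**
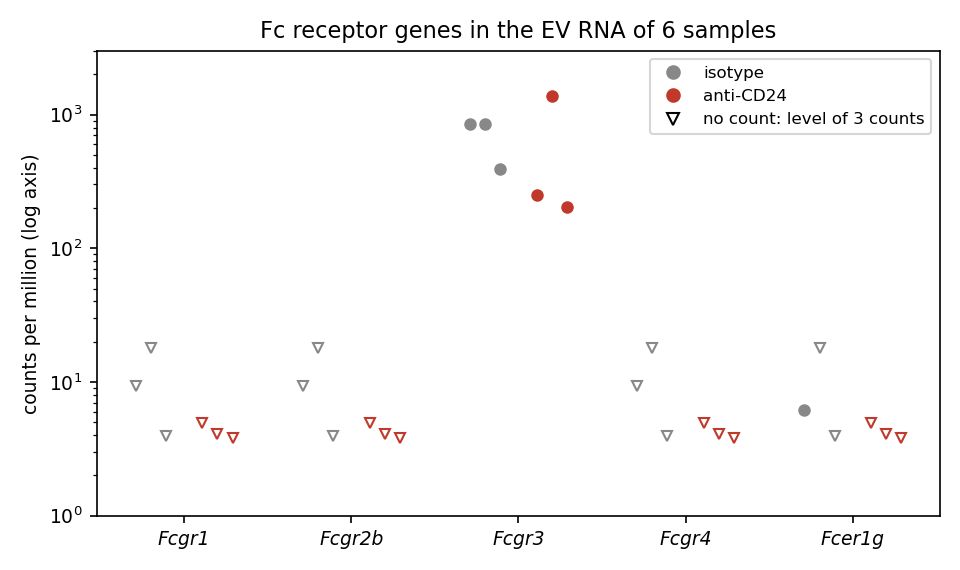
CPM of each of the 5 members in each sample is plotted on a log axis, with isotype samples in grey and anti-CD24 samples in red, and an open triangle marks a sample at 0 at the level that 3 counts would have there (3.78 to 18.1 CPM). Fcgr3 lies between 203 and 1384 CPM in all 6 samples, whereas the other members are at 0 apart from Fcer1g at 6.20 CPM in isotype replicate 1.

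Fcgr3 and Fcgr2b are alike in part of their sequence, which bears on how reads are divided between them. The longest exact run of letters shared by their transcripts was 129 bases, and 238 of the 1318 30-base windows of Fcgr3-201 (18.1%) also occurred in Fcgr2b. The longest runs shared with Fcgr1, Fcgr4 and Fcer1g were 13, 14 and 11 bases, and no 30-base window was shared with them. The deposited tables mark 0 reads as not uniquely aligned. That 0 does not show that each read was assigned to a single gene. Gm44456 and n-TStga1, which lie apart on chromosome 13, had identical counts in every sample, so reads may have been counted at several genes. Fcgr2b had 0 counts in every sample, so no read from the common stretch was counted for it. How many of the Fcgr3 counts came from that stretch is uncertain and was not tested.

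By level, Fcgr3 was highest in anti-CD24 replicate 2, at 1384 CPM (95% 1300 to 1471). Isotype replicate 2 followed at 855 CPM (720 to 1007) and isotype replicate 1 at 850 CPM (752 to 957), and these neighbours did not differ beyond their counting intervals. Isotype replicate 3 held 394 CPM (351 to 441), between these samples and anti-CD24 replicate 1 at 249 CPM (211 to 292) and anti-CD24 replicate 3 at 203 CPM (173 to 237). The intervals of the lowest pair overlap. The anti-CD24 samples thus took the highest and both of the lowest places, and the groups overlap. The highest sample exceeded the lowest 2.17-fold among the isotype samples and 6.83-fold among the anti-CD24 samples. This wider spread is not shown to be particular to Fcgr3. Over genes with at least 10 counts in a pair of replicates, chi-square per degree of freedom was 118 to 340 between anti-CD24 replicates. Between isotype replicates it was 16.4 to 41.4, and this measure also grows with depth.

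Among protein-coding genes ranked by count, Fcgr3 held places 3, 3 and 2 in isotype replicates 1 to 3, and places 3, 1 and 10 in anti-CD24 replicates 1 to 3. Per kilobase of exon its place ranged from 2 to 12. All of its direct neighbours in the ranking were mitochondrially encoded genes or Lars2, which encodes the mitochondrial leucyl-tRNA synthetase. In isotype replicate 1, Lars2 with 338 counts stood just above the 274 of Fcgr3, and mt-Atp8, a subunit gene of ATP synthase, with 171 just below. In isotype replicate 2, Lars2 had 202 counts and mt-Co1, a cytochrome c oxidase subunit gene, 128, around the 142 of Fcgr3. In isotype replicate 3, Lars2 reached 1071 counts and mt-Co1 264, with Fcgr3 at 301 between them. Among the anti-CD24 samples, replicate 1 had mt-Co1 at 177 and mt-Atp8 at 119 around the 152 counts of Fcgr3. In replicate 2 Fcgr3 led with 1019 counts, before Lars2 with 754. In replicate 3 the complex I subunit genes mt-Nd5 (197 counts) and mt-Nd4 (135 counts) stood around the 161 of Fcgr3. When mitochondrially encoded genes were left out, Fcgr3 ranked between 1 and 3 in every sample.

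The comparison of anti-CD24 with isotype asks whether engagement of CD24 changed the EV content of Fcgr3 RNA, and no difference was detected. The mean was 700 ± 265 CPM (SD, n = 3) with isotype and 612 ± 669 CPM (SD, n = 3) with anti-CD24. The difference of −87.8 CPM was smaller than the SD of either group (p = 0.8, two-sided exact permutation test, in which 3 against 3 samples cannot give less than 0.1). In edgeR's quasi-likelihood test over 1501 genes, the log2 fold change of Fcgr3 was −0.18 (SE 0.74, adjusted p = 0.93), beside a median of −0.29 over all genes tested. For edgeR, SE here is the absolute log2 fold change divided by the square root of the F statistic of that test. Fcgr3 was the single member with enough counts to be tested, and 0 of 1 members passed the threshold, where 1 of 1501 genes (0.0666%) did and 119 had an unadjusted p under 0.05. The gene called was Zfp260, a zinc finger gene.

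By the names given to the deposited data, libraries with the same replicate number came from the same sequencing run, and the direction was not uniform between replicate numbers. In replicate 1 Fcgr3 was 3.41-fold lower with anti-CD24 (850 and 249 CPM). In replicate 2 it was 1.62-fold higher (855 and 1384 CPM). In replicate 3 it was 1.94-fold lower (394 and 203 CPM). The corresponding CPM differences of −601, 529 and −191 gave p = 0.75 in a two-sided exact sign-flip test, which cannot fall below 0.25 with 3 pairs. With the replicate number as a block, the log2 fold change of Fcgr3 was −0.41 (SE 0.82, adjusted p = 0.99, edgeR), and 0 genes were called (20 at an unadjusted p under 0.05).

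**Figure D3:**
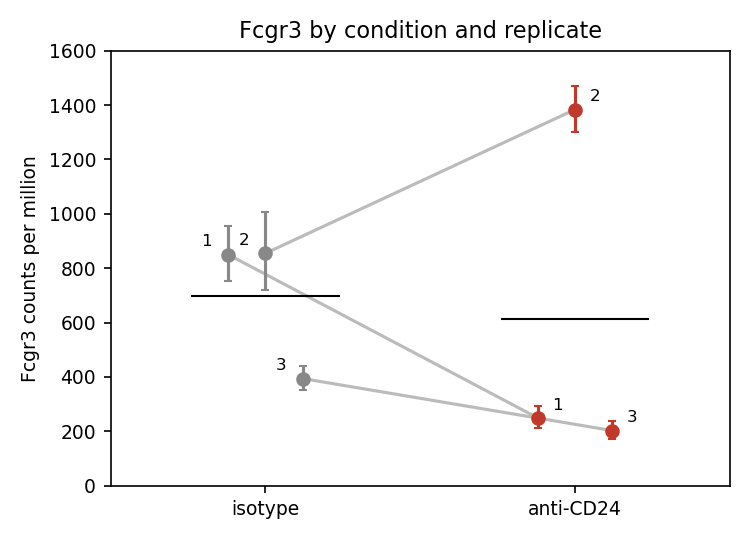
Fcgr3 CPM is plotted for each sample by condition, with exact 95% counting intervals as bars, group means as horizontal lines and grey lines between the libraries of the same replicate number. The lines of replicates 1 and 3 fall, from 850 to 249 and from 394 to 203 CPM, and that of replicate 2 rises from 855 to 1384 CPM.

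The sign of the difference depended on single libraries and on the denominator. Without anti-CD24 replicate 2, the log2 fold change of Fcgr3 was −1.39 (SE 0.88, adjusted p = 0.62, edgeR). In CPM both remaining anti-CD24 samples lay below all 3 isotype samples. As a share of protein-coding counts, isotype replicate 3 (2.824%) lay below both of them (2.873 and 2.830%). The log2 fold change was 0.68 without anti-CD24 replicate 1, 0.34 without isotype replicate 1 and 0.03 without anti-CD24 replicate 3. As a share of the counts outside rRNA and ribozyme genes, Fcgr3 took 0.986, 0.909 and 0.437% in the isotype samples and 0.235, 0.909 and 0.198% in the anti-CD24 samples (means 0.777 ± 0.297% and 0.447 ± 0.401%, SD, n = 3, exact permutation p = 0.3). As a share of protein-coding counts it took 4.96, 5.83 and 2.82% with isotype and 2.87, 9.79 and 2.83% with anti-CD24 (means 4.54 ± 1.55% and 5.17 ± 4.01%, SD, n = 3, exact permutation p = 0.8). The latter mean was higher with anti-CD24, while the former and the CPM were lower.

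**Figure D4:**
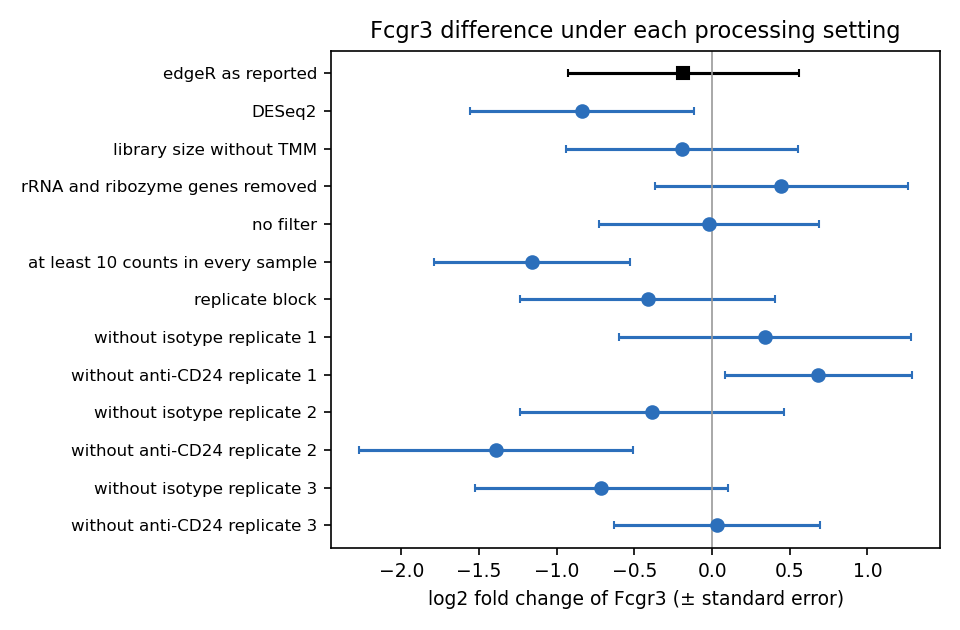
The log2 fold change of Fcgr3, anti-CD24 against isotype, is plotted for the fit as reported (black) and 12 other settings (blue). Bars are the SE derived from the F statistic for edgeR and the fitted standard error for DESeq2. The values lie from −1.39 to 0.68, 8 of the 12 other settings fall below 0 and 4 above, and none passes an adjusted p of 0.05.

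Among the 133 genes with at least 10 counts in every sample, those whose levels followed Fcgr3 most closely over the 6 samples were short non-coding RNAs and Gm11280. The Pearson r of log2(CPM + 1) with Fcgr3 was 0.93 for Gm11280, a bidirectional promoter lncRNA, 0.92 for Rpph1, the RNA of RNase P, 0.88 for the snRNA gene Gm25813, 0.83 for Rny3, a Y RNA, and 0.82 for mt-Tq, the mitochondrial glutamine tRNA. These 6 points share their libraries and depth, and anti-CD24 replicate 2 was the highest sample for all 5 genes and for Fcgr3. Without that sample, r was 0.91 for Gm11280, 0.88 for Rpph1, 0.98 for Gm25813, 0.69 for Rny3 and 0.70 for mt-Tq. Closest in level were mt-Tq, mt-Atp8, mt-Co1, Snord32a and n-R5s102, with a mean absolute difference from Fcgr3 of 0.58, 0.65, 0.70, 0.81 and 0.92 in log2 CPM.

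Gm11280 (ENSMUSG00000085393) held 344, 205 and 136 CPM in isotype replicates 1 to 3 and 126.2, 650 and 94.4 CPM in anti-CD24 replicates 1 to 3. As for Fcgr3, anti-CD24 replicate 2 was highest and anti-CD24 replicates 1 and 3 were lowest. Its log2 fold change was 0.32 (SE 0.78, adjusted p = 0.85, edgeR). The ratio of Fcgr3 to Gm11280 counts, chosen after its values were seen, was 2.47, 4.18 and 2.89 in the isotype samples and 1.97, 2.13 and 2.15 in the anti-CD24 samples. The groups did not overlap (means 3.18 ± 0.889 and 2.08 ± 0.0946, SD, n = 3). The exact permutation p was 0.1, the smallest that 3 against 3 samples can give, so this design cannot place the difference past 0.05. Gm11280 was also picked for its likeness to Fcgr3 in these same samples, so this p supports no difference between the groups.

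**Figure D5:**
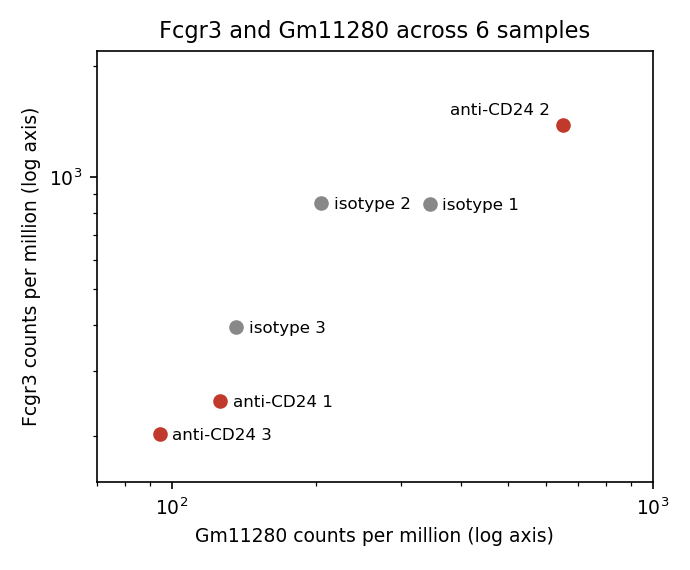
Fcgr3 CPM is plotted against Gm11280 CPM for the 6 samples, both on log axes, with isotype samples in grey and anti-CD24 samples in red. Anti-CD24 replicate 2 lies highest on both axes (1384 and 650 CPM) and anti-CD24 replicate 3 lowest (203 and 94.4 CPM).

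Few genes share exon bases with a nuclear tRNA gene, and Fcgr3 had the most counts of them. Of 408 nuclear tRNA genes in the RefSeq table, 25 lie within 50 kb of Fcgr3, and they include 5 of the 7 glycine tRNA genes with the anticodon TCC. A second tRNA gene in the Fcgr3 span, n-TEctc5 (171064164 to 171064235), is intronic. Exons of 15 genes share bases with a nuclear tRNA gene, and 11 of these genes had a count. In 4 of them there was a count in every sample, and Fcgr3 was the 1 protein-coding gene among these, followed in total by Gm11280. The other two, Gm44456 and the tRNA gene n-TStga1, had identical counts in every sample, between 3 and 74, so that the files do not separate them. The remaining protein-coding genes of the 15 had few counts or none, with 11 counts over all samples on Myh8, a muscle myosin gene, and 0 on Mettl26. A match to the 9-letter motif GTTCGANTC, the core of the internal tRNA promoter element called the B box, was present on either strand in the exons of 0 of the 5 members and of 576 of 21620 protein-coding genes (2.66%). That search covered exons only, and the exons of Fcgr3 hold 17 of the 72 bases of n-TGtcc1. It therefore cannot decide whether reads of the tRNA gene were counted for Fcgr3. The count of a gene sums reads over all of its exons, so the part of the Fcgr3 counts that came from the first exon of Fcgr3-202 or from the tRNA was not tested. The strand of the tRNA genes is not given in the table used here.

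The genes around Fcgr3 had few counts. Of 33 other genes within 250 kb, Fcgr2b, Fcgr4 and Fcer1g included, 7 had a count and 26 were at 0 in every sample. Mir6546, a microRNA gene inside the span of Fcgr3, was among those at 0. Over the whole series, 9700 of 47729 genes had a count, a similar share, so genes at 0 are no particular trait of this locus. Gm26110, an snRNA gene inside the span of Fcgr4, had 2, 1 and 0 counts in the isotype samples and 23, 9 and 0 in the anti-CD24 samples (log2 fold change 2.27, SE 1.36, adjusted p = 0.55, edgeR). Tomm40l, a gene of the mitochondrial import family, had 1, 2 and 8 counts with isotype and 0 in all 3 anti-CD24 samples, with an adjusted p of 0.49 (edgeR). In neither gene was a difference detected at this depth.

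Of 40 other genes of the Fc receptor pathway, 18 had a count, a share not below that of all protein-coding genes, and 2 reached 10 counts in all. Over all protein-coding genes, 7253 of 21697 (33.4%) had a count in any sample. Of 14 further Fc receptors and their partners, 5 had a count and 9 were at 0. The highest was B2m, the light chain of the neonatal Fc receptor and of MHC class I, with 0, 3 and 3 counts with isotype and 1, 1 and 0 with anti-CD24. Of 18 activating signalling genes, 11 had a count. Syk, the kinase recruited to phosphorylated receptor chains, had 1, 0 and 13 counts with isotype and 1, 0 and 0 with anti-CD24 (adjusted p = 0.55, edgeR), so that 1 library held most of its counts. Plcg2, the phospholipase downstream of Syk in B cells, had 0, 0 and 7 counts with isotype and 2, 1 and 1 with anti-CD24 (adjusted p = 0.77, edgeR). Of 8 inhibitory signalling genes, 2 had a count, the phosphatase genes Ptpn11 with 5 and Ptpn6 with 1, and Inpp5d, which encodes the phosphatase SHIP1 that acts after FcγRIIB, was at 0. Of these 40 genes, 6 were tested in edgeR and 0 rose or fell, with a lowest adjusted p of 0.55 and a median log2 fold change of −0.96 beside −0.29 over all 1501 genes. All 40 together held 85 counts, 6 to 34 per sample.

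Few counts fell on markers of the cell types in which Fcgr3 is best known. These lists are read beside the 33.4% of all protein-coding genes that had a count. Of 11 myeloid markers 3 had a count, with 8 counts in all, namely 4 on Csf1r, 3 on Lyz2 and 1 on Itgam, and their sum was 0 CPM in every isotype sample and 0 to 6.55 CPM in the anti-CD24 samples. Of 7 NK cell markers only Prf1 had a count, a single one. Of 6 mast cell markers 2 had a count, with 3 counts in all. The B cell marker with most counts was Ighm, the IgM heavy chain gene, with 3, 0 and 3 counts in the isotype samples and 3, 11 and 3 in the anti-CD24 samples. The 2049 counts on Fcgr3 stood beside 51 on the 9 B cell markers and 8 on the 11 myeloid markers, in counts not divided by exon length.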

How the data were processed

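EV RNA of WEHI-231 cells was sequenced on an Ion Torrent PGM by the authors, who trimmed reads with FASTX. Alignment was by tmap, and HTSeq counted reads on exons in union mode, by strand. The methods give Ensembl GRCm38.p5 and the submitters' processing notes GRCm38.p4. The deposited files hold raw counts per gene, with no normalization. In union mode a read with any base on an exon of a single gene is counted for it. The tables give no read positions, and 40699 to 278045 reads per sample fell on no gene.

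All 6 samples were grouped by their labelled condition. The 5 summary lines of each file were left out of library sizes. Symbols, exons and biotypes came from GENCODE M21, in which 419 of the 47729 genes were not found, and tRNA genes from RefSeq for GRCm38.p6. Genes with at least 1 CPM in 3 or more samples entered edgeR 4.0.16 under R 4.3.3 (quasi-likelihood test, TMM, condition alone, Benjamini-Hochberg at 0.05), after a test on simulated data. Single values were compared by exact permutation and sign-flip tests. Because 1 CPM is under 1 count in every library, the filter keeps genes with as few as 1 count in 3 samples.

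The members and gene lists were chosen with earlier results of these data known. The value of 1 listed marker is not reported here by name. Genes were named if they were members, listed genes with at least 10 counts in all, the 5 most alike in pattern or level, rank neighbours or genes within 50 kb of Fcgr3; others named for few counts, tRNA-overlapping genes and Zfp260 were chosen after their values were seen. Same-numbered libraries share a sequencing run by the names of the deposited data, but the labels give only the number. The deviations of these samples from their group means correlated at −0.030, −0.024 and −0.106 over 1501 genes. Alternatives were DESeq2 1.42.0, no TMM, other filters and denominators, a replicate block and leaving out each sample.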

Additional observations from a re-analysis of the deposited data

How the results depend on the processing

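For Fcgr3, 12 alternative settings left 0 differences past the threshold (adjusted p 0.62 to 0.99), 8 with a lower and 4 with a higher level in anti-CD24. The log2 fold change turned to 0.44 when rRNA and ribozyme genes were removed, and leaving out 1 sample gave −1.39 (without anti-CD24 replicate 2) to 0.68 (without anti-CD24 replicate 1), also above 0 without isotype replicate 1 (0.34) and anti-CD24 replicate 3 (0.03). The median over all genes moved too, from −0.29 to −0.97 with DESeq2 and −0.08 without rRNA genes, and Fcgr3 lay 0.13 and 0.52 above it, against 0.11 as reported. It lay below the median by −1.17 with at least 10 counts in every sample (log2 fold change −1.16, unadjusted p = 0.094, adjusted p = 0.99, edgeR), by −0.22 with the block, and by −0.90 without anti-CD24 replicate 2 and −0.53 without isotype replicate 3. With the replicate block Fcgr3 was at −0.41 (SE 0.82, adjusted p = 0.99, edgeR), and 0 genes were called (20 at an unadjusted p under 0.05). The deviations of the pairs did not correlate positively. The filter keeps genes with few counts, so this cannot show that the shared run had no effect. The block was kept as an alternative. Of all genes tested, 1 was called, against 0 with DESeq2 (95 unadjusted), 0 with at least 10 counts in every sample (3 unadjusted, fewer genes tested), 2 with no filter, and 0 to 47 when 1 sample was left out (47 without anti-CD24 replicate 1, 3 without anti-CD24 replicate 3, 0 without isotype replicate 1 or anti-CD24 replicate 2). The CPM difference of −87.8 became 0.63 percentage points of protein-coding counts and 1.65 of those counts without mitochondrial genes and Zfp260, and ran from −474 (without anti-CD24 replicate 2) to 117 (without anti-CD24 replicate 3), with 93.6 without anti-CD24 replicate 1. With denominators chosen after seeing the data, the difference was −81.2 per 1e+06 counts including reads on no gene, and −1.10 in the ratio to Gm11280. The causes were not tested. No pathway gene was called in the settings that tested one, which leaves out the filter of at least 10 counts in every sample, and the Fcgr3 share of the members' counts stayed at 99.8 to 100%. Members other than Fcgr3 had too few counts for any setting to show a difference.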
